A study of Arabidopsis thaliana with 17 samples.

Results

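The genes described here are 10 morning-phased genes of the Arabidopsis circadian clock, taken by locus from the 27655 genes measured in each library by a rule that lists loci and uses no measured value. They are CCA1 (AT2G46830), LHY (AT1G01060), RVE1 (AT5G17300), RVE2 (AT5G37260), RVE4 (AT5G02840), RVE6 (AT5G52660), RVE8 (AT3G09600), LNK1 (AT5G64170), LNK2 (AT3G54500) and PRR9 (AT2G46790). All 10 passed the filter on low counts, as did 21282 genes in all. RNA came from 14-day-old Arabidopsis thaliana seedlings in hydroponic culture, taken at 24 h or at 0 h of treatment with 200 mM NaCl. At each time there were 3 lines: OE-6, a single complementation line in which the constitutive 35S promoter drives AtDGCR14L in the atdgcr14l-1 background, the atdgcr14l-1 mutant itself, and Col-0, the wild type. Col-0 at 0 h had 2 libraries and each other group had 3, which gives 17 libraries. Nothing in the labels tells whether replicates were grown apart, and the p-values therefore reflect only how far these libraries differ within a group, a spread that may be technical.

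The plant clock is a loop of transcriptional repressors and activators that peak at successive times of day. CCA1 and LHY are closely related MYB transcription factors that accumulate around dawn and repress genes of the day and evening, TOC1 and ELF4 among them. RVE8, RVE4 and RVE6 are MYB factors of the same family that activate evening genes, and LNK1 and LNK2 are coactivators that bind these RVE proteins. RVE1 and RVE2 are further family members, RVE1 being known for linking the clock to auxin. PRR9 is a pseudo-response regulator that represses CCA1 and LHY during the morning. The labels used here give no clock time of sampling, and only 2 times were measured, so the phase that names these genes cannot be read from these libraries. The study asks about AtDGCR14L in salt tolerance and in the splicing of pre-mRNA, and several clock transcripts are known to be spliced in alternative forms. The deposited values are per gene, so the forms of each transcript are not separated here.

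The 250 bases before the annotated start of 5 genes are shown because these are the genes whose levels the comparisons turn on: RVE8 and LHY, which passed the test between lines, RVE2, which moved the other way, and CCA1 and PRR9, which varied together. Sequences and positions are from the RefSeq annotation of TAIR10.1, the start is the outermost annotated one, and each window is written 5′ to 3′ on the strand of its gene. Capitals mark matches on either strand to short sequences that plant clock and hormone factors are known to bind: the G-box (CACGTG), the ABRE core (ACGTG, which every G-box contains), the CCA1 binding site (AAAAATCT) and the evening element (AAAATATCT).
CCA1, chr2:19245341-19245590, plus strand: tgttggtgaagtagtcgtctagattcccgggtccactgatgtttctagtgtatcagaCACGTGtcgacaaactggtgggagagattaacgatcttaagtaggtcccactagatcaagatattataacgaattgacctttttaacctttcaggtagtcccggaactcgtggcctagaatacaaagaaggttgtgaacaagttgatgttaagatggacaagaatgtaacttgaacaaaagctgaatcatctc
PRR9, chr2:19232357-19232606, plus strand: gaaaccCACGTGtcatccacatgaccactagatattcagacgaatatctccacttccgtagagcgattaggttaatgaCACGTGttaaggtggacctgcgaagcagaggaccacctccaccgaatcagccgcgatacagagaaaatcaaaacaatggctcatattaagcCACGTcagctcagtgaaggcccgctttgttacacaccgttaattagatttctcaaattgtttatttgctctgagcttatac
LHY, chr1:37872-38121, minus strand: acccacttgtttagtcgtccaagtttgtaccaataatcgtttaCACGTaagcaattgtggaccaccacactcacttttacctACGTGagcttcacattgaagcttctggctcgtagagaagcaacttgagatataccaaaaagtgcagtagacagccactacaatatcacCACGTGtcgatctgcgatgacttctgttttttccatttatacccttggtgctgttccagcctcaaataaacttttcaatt
RVE2, chr5:14753089-14753338, minus strand: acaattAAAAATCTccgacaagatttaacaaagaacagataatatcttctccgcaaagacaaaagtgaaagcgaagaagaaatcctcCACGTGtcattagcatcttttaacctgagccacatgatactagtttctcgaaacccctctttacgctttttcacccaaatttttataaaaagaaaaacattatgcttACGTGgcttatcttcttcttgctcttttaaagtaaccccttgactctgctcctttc
RVE8, chr3:2945989-2946238, plus strand: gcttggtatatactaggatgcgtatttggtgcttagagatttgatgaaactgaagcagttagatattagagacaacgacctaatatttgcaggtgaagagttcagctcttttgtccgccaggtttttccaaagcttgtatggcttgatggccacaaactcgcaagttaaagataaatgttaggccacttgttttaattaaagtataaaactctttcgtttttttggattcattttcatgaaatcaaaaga
A G-box stood in the windows of 5 of the 10 genes (CCA1, LHY, RVE1, RVE2 and PRR9, with 2 in PRR9), against 6.49% of all 27443 windows of the same length. Those windows stand before the annotated protein-coding genes of the nuclear chromosomes. The ABRE core stood in 8 of the 10 against 22.9% of all windows, and the CCA1 binding site in 2 (RVE2 and RVE6) against 6.69%. The evening element stood in none of the 10, against 2.36% of all windows. The windows of RVE8 and RVE4 held no match to any of these motifs. In the RVE4 window 141 of the 250 bases lie in exons of another annotated gene. A match describes the letters of the window only. CCA1 (chr2:19245591-19248915, up to 8 exons in a transcript) and PRR9 (chr2:19232607-19235179, up to 7 exons) lie on the same strand with 10411 bases between them. RVE8 lies at chr3:2946239-2949017 and LHY at chr1:33365-37871. RVE1, LNK1 and LNK2 overlap annotated genes on the opposite strand (AT5G17305 for RVE1, AT5G64160 for LNK1, and both AT3G54490 and the long noncoding RNA AT3G08405 for LNK2). The libraries were made with a dUTP protocol that keeps strand, but the strand used in counting is not given in the sources used here, so the counts of these 3 genes are uncertain in that respect.

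Each library held between 53058673 and 56464259 estimated counts. Levels are given as CPM, the counts of a gene scaled to a common library size and adjusted by TMM, a factor that corrects for library composition. AtDGCR14L itself was at 43.2, 48.6 and 50.5 CPM in OE-6 at 0 h, at 8.27, 8.52 and 6.76 CPM in atdgcr14l-1 and at 59.9 and 55.7 CPM in Col-0. At 24 h it was at 67.6, 88.3 and 68.4 CPM in OE-6, at 11.3, 13.1 and 12.1 CPM in the mutant and at 74.2, 78.8 and 72.2 CPM in Col-0, so every mutant library was far below the others at both times, in accord with the labels. Libraries of the 24 h groups lay further apart in the mutant and in OE-6 than in Col-0, with mean Spearman correlations to the own group of 0.9736 to 0.9784 in OE-6, 0.9798 to 0.9868 in atdgcr14l-1 and 0.9926 to 0.9937 in Col-0. Among the mutant libraries replicate 3 had the lowest of these values, and among the OE-6 libraries replicate 2. The 3 shoot markers (RBCS1A, LHCB1.1 and RCA) moved with salt, summing to 9605 to 14310 CPM over the 24 h libraries and to 16490 to 21410 CPM over the 0 h libraries, with no overlap. Between lines LHCB1.1 was called higher in the mutant than in Col-0 at 24 h (1.22 ± 0.26, adjusted p = 0.00905). The other shoot markers did not share this rise. RBCS1A averaged 8329 CPM in the mutant and 8279 CPM in Col-0 at 24 h, and RCA 2380 and 2637 CPM. The 5 root markers summed to 11.3, 10.5 and 146 CPM in OE-6 at 24 h, against 64.3 to 215 CPM in the mutant and 36.8 to 135 CPM in Col-0, and to between 113 and 200.2 CPM in the 0 h libraries. These sums are nearly all PYK10, as the others (EXPA7, PRP1, COBL9 and PRP3) averaged at most 0.35 CPM. PRP3 was at 0 in all 3 OE-6 libraries at 24 h and averaged 0.048 CPM in the mutant, a difference that was called (adjusted p = 0.0487). The 6 floral markers summed to 18.2 to 40.6 CPM in OE-6 at 0 h, against 6.64 to 8.45 CPM in atdgcr14l-1 and 7.53 to 8.19 CPM in Col-0. At 24 h these markers summed to 3.65 to 60.9 CPM in OE-6, 4.07 to 5.11 CPM in the mutant and 3.41 to 13.1 CPM in Col-0. The part of the shoot markers in the results for salt and for the mutant at 24 h, and of the root and floral markers in those for OE-6, was not tested. In these bulk samples fewer cells of a type and less RNA per cell cannot be told apart.

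Expressed per kilobase of exon, the 10 genes fell into 2 ranges. In Col-0 at 0 h RVE2 was at 35.8 CPM per kb, RVE4 at 21.2, LNK1 at 19.2, LNK2 at 18.3 and RVE6 at 6.05. The other 5 were all below 1 CPM per kb, with RVE1 at 0.941, PRR9 at 0.694, CCA1 at 0.641, RVE8 at 0.414 and LHY at 0.145. The low genes were measured from few counts, 14 to 186 per library for LHY and 29 to 557 for RVE8. Their biological coefficient of variation, the spread between libraries of a group after counting error, was also the higher: 39.2% for PRR9, 35.5% for CCA1, 27.3% for LHY and 26.5% for RVE8, against 8.72% for RVE4 and a median of 13.6% over all tested genes.

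**Figure D1:**
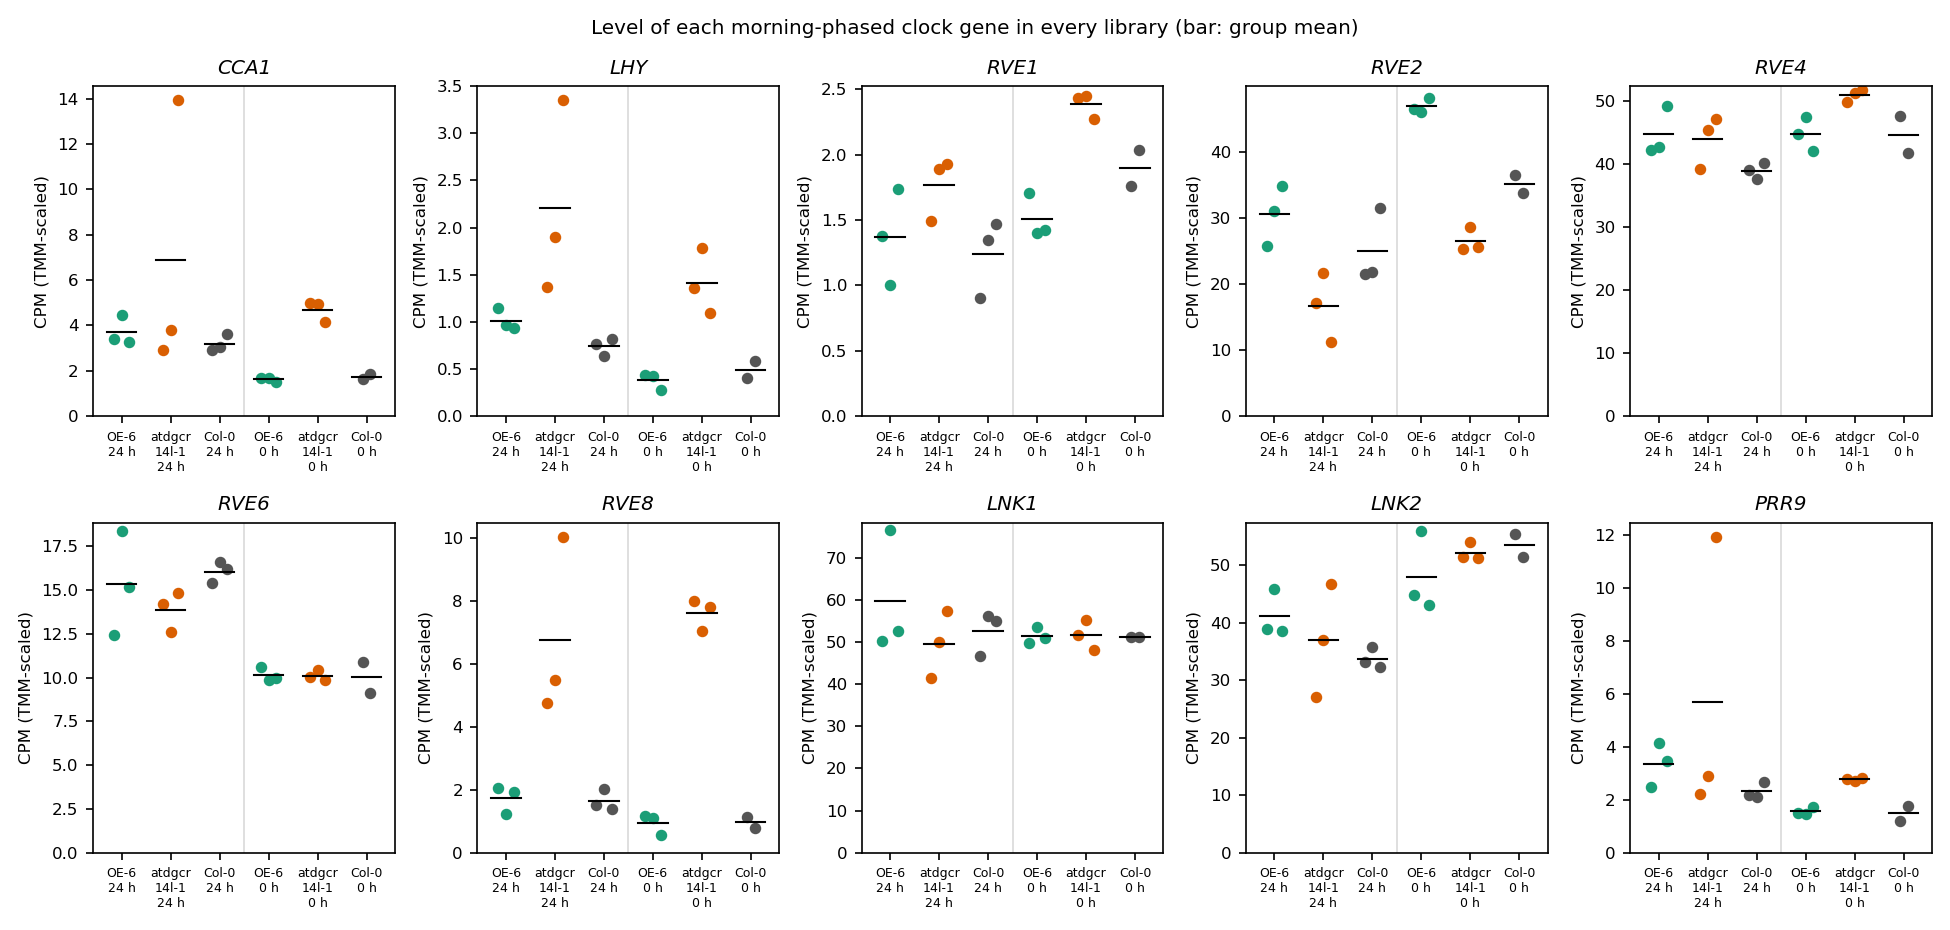
CPM of each of the 10 genes (vertical axis, TMM-scaled, starting at 0, 1 panel a gene) in every library of the 6 groups (points), with the group mean as a bar. RVE8 in atdgcr14l-1 lies between 4.75 and 10.03 CPM, above all libraries of the other lines, and 1 mutant library at 24 h lies far above the others for CCA1 (13.9 CPM) and PRR9 (11.9 CPM).

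Before salt, the mutant differed from Col-0 in 1 of the 10 genes: RVE8 rose. Of all tested genes 1.45% rose and 0.573% fell in this comparison. The median log2 fold change of the 10 was 0.26, against -0.01 over all tested genes. RVE8, the activator of evening genes, stood at 8.01, 7.05 and 7.80 CPM in the 3 atdgcr14l-1 libraries at 0 h, against 1.15 and 0.796 CPM in the Col-0 libraries. The groups did not overlap, and the lowest mutant library was several times the highest Col-0 one. The log2 fold change was 2.97 ± 0.39 (SE, adjusted p = 0.000868, edgeR's quasi-likelihood test with Benjamini-Hochberg adjustment over all tested genes), a fold of 7.82. The call held with each library left out in turn, where the log2 fold change lay between 2.73 and 3.26 (highest adjusted p = 0.035).

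The dawn repressors CCA1 and LHY were higher in every mutant library at 0 h than in either Col-0 library, without passing the test. LHY was at 1.36, 1.78 and 1.098 CPM in atdgcr14l-1 against 0.407 and 0.582 CPM in Col-0, a log2 fold change of 1.51 ± 0.38 (adjusted p = 0.059). CCA1 was at 4.999, 4.95 and 4.15 CPM in the mutant against 1.63 and 1.86 CPM in Col-0 (1.43 ± 0.49, adjusted p = 0.194). PRR9, which represses both, was at 2.79, 2.72 and 2.81 CPM in the mutant against 1.20 and 1.77 CPM in Col-0 (0.90 ± 0.54, adjusted p = 0.575). For all 3 genes the mutant and Col-0 libraries were apart at this time, and the spread that entered the test was that of all 6 groups, in which CCA1 and PRR9 varied most at 24 h. Col-0 had only 2 libraries at 0 h, and the share of all tested genes whose libraries lay apart in this way is not given here. When only the 2 groups compared were fitted, CCA1 (1.44 ± 0.16, adjusted p = 0.00041), LHY (1.52 ± 0.32, adjusted p = 0.0119), PRR9 (0.91 ± 0.20, adjusted p = 0.0159) and RVE2 (-0.40 ± 0.08, adjusted p = 0.00746) joined RVE8. Without atdgcr14l-1 24 h replicate 3, which is no part of this comparison but enters the shared spread, CCA1 and LHY passed the test (adjusted p = 0.00126 and 0.0212), and without replicate 1 of that group LHY did (adjusted p = 0.0394). DESeq2 called RVE8 and LHY.

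The other members lay closer together at 0 h. RVE2 was at 25.2, 28.7 and 25.5 CPM in the mutant and at 36.5 and 33.7 CPM in Col-0 (-0.41 ± 0.22, adjusted p = 0.486). Here too the groups did not overlap, in the opposite direction to RVE8. Of the relatives of RVE8, RVE4 averaged 51.0 ± 0.92 CPM in the mutant and 44.7 ± 4.21 CPM in Col-0 (SD, n = 3 and 2), every mutant library being above both Col-0 ones by a small margin (0.19 ± 0.10, adjusted p = 0.473). RVE6 averaged 10.09 ± 0.29 and 10.01 ± 1.26 CPM in these groups. The coactivator LNK1 averaged 51.6 ± 3.52 CPM in the mutant and 51.1 ± 0.05 CPM in Col-0, and LNK2 averaged 52.2 ± 1.55 and 53.4 ± 2.86 CPM. RVE1 was at 2.27 to 2.45 CPM in the mutant against 1.76 and 2.04 CPM in Col-0, also without overlap (0.33 ± 0.26, adjusted p = 0.72). RVE1, RVE2 and RVE4 were not called, and with only 2 Col-0 libraries groups can easily lie apart. The share of all tested genes that did so is not given here, so the separation of these genes cannot be set against it.

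In OE-6 at 0 h, 2 of the 10 genes fell relative to the mutant (LHY and RVE8) and 1 rose (RVE2). Over all tested genes 1.48% rose and 3.09% fell in this comparison, and the median log2 fold change of the 10 was -0.42 against 0.01 over all genes. RVE8 was at 1.16, 1.09 and 0.572 CPM in OE-6 against the mutant values given above, a log2 fold change of -3.02 ± 0.33 (adjusted p = 0.000125). LHY was at 0.436, 0.425 and 0.276 CPM in OE-6, below every mutant library (-1.89 ± 0.34, adjusted p = 0.00447). RVE2 was at 46.5, 46.0 and 48.1 CPM in OE-6, above every mutant library (0.82 ± 0.19, adjusted p = 0.0244). The RVE2 call was lost without any 1 of the 6 libraries compared (adjusted p = 0.0639 to 0.105). CCA1 stood at 1.67, 1.70 and 1.5 CPM in OE-6, again below every mutant library (-1.53 ± 0.43, adjusted p = 0.0569). It passed without replicate 1, 2 or 3 of the mutant at 24 h (adjusted p = 0.0196, 0.0353 and 0.000152) and with DESeq2 (adjusted p = 0.00768), and PRR9 (-0.83 ± 0.47, adjusted p = 0.423) passed without replicate 3 (adjusted p = 0.034), which brings the count to 5. The comparisons of the mutant with Col-0 and of OE-6 with the mutant share the mutant libraries, so opposite signs in them are not independent. The share of all tested genes whose OE-6 and mutant libraries lay apart is not given here.

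**Figure D2:**
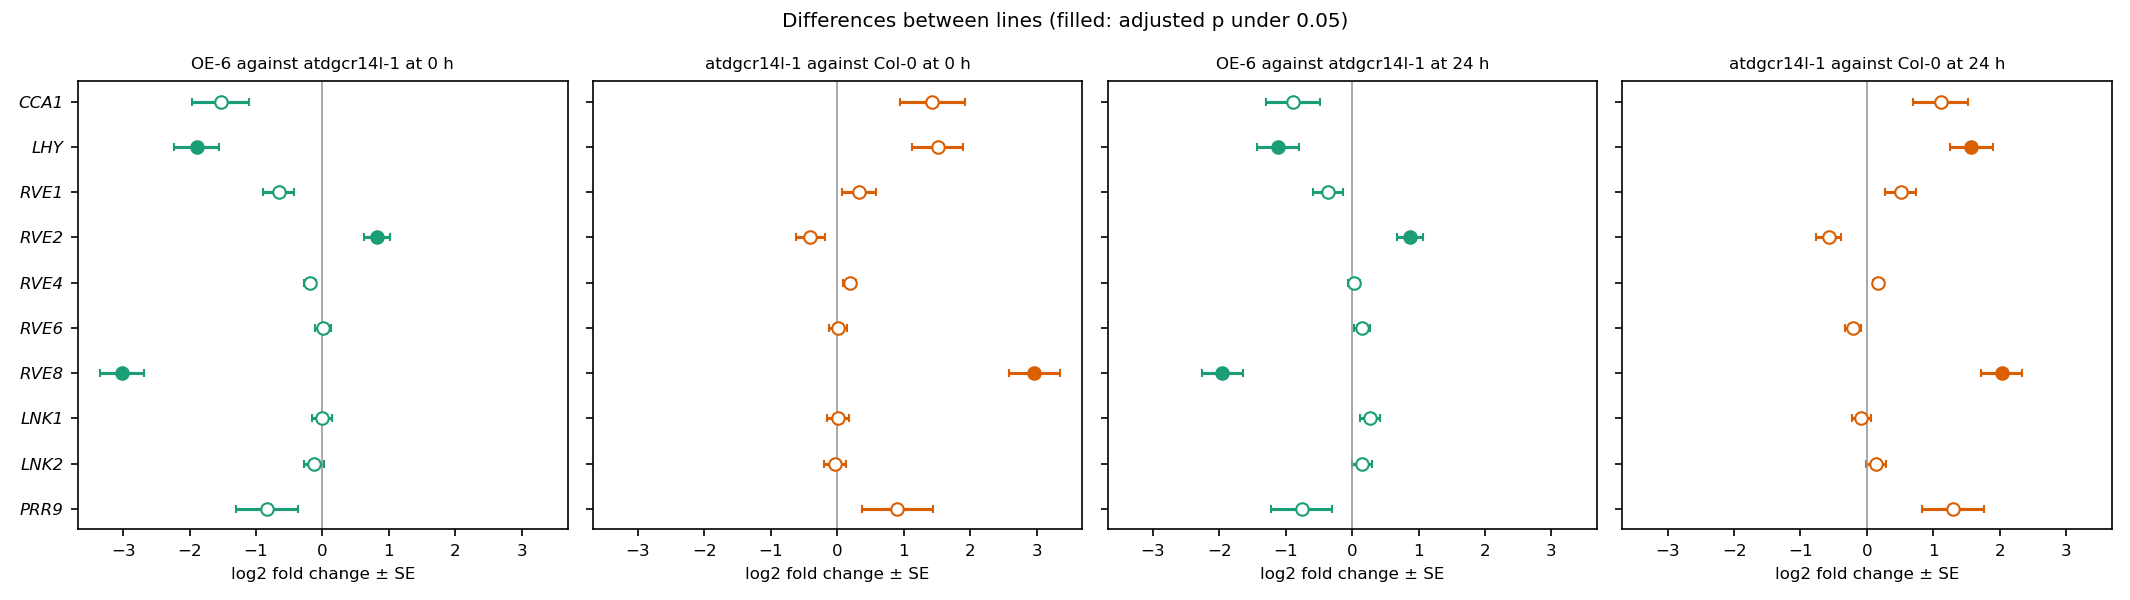
Log2 fold change ± SE (horizontal axis) of each of the 10 genes (vertical axis) for OE-6 against atdgcr14l-1 and for atdgcr14l-1 against Col-0, at 0 h and at 24 h; filled points have an adjusted p under 0.05. RVE8 is filled in all 4 panels, at -3.02, 2.97, -1.95 and 2.03, and RVE4, RVE6, LNK1 and LNK2 are open in each.

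After 24 h of salt the mutant stood above Col-0 in LHY and RVE8, 2 of the 10 genes, and none fell. Over all tested genes 7.71% rose and 4.67% fell in this comparison, and the median log2 fold change of the 10 was 0.34 against -0.01 over all genes. RVE8 was at 4.75, 5.49 and 10.03 CPM in atdgcr14l-1 against 1.53, 2.04 and 1.40 CPM in Col-0, with no overlap. The log2 fold change was 2.03 ± 0.31 (adjusted p = 0.00138), a fold of 4.07. LHY was at 1.37, 1.91 and 3.35 CPM in the mutant against 0.764, 0.640 and 0.823 CPM in Col-0, also without overlap (1.57 ± 0.32, adjusted p = 0.00737). Both calls held with each library left out in turn, RVE8 between 1.63 and 2.23 and LHY between 1.14 and 1.82 on the log2 scale. Both lowest values came without atdgcr14l-1 24 h replicate 3.

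CCA1 and PRR9 at 24 h rested on that library. CCA1 was at 2.93, 3.81 and 13.9 CPM in the mutant and at 2.92, 3.04 and 3.61 CPM in Col-0, so that 2 of the mutant libraries lay within or just above the Col-0 range. PRR9 was at 2.21, 2.91 and 11.9 CPM in the mutant and at 2.19, 2.109 and 2.66 CPM in Col-0. The log2 fold changes of 1.11 ± 0.41 (CCA1, adjusted p = 0.0897) and 1.29 ± 0.46 (PRR9, adjusted p = 0.0794) did not pass the test. Without replicate 3 they were 0.08 ± 0.18 and 0.14 ± 0.23. They passed without replicate 1 (adjusted p = 0.0205 and 0.0204), without replicate 2 (adjusted p = 0.0324 and 0.0292) and with DESeq2 (adjusted p = 0.0414 and 0.031). RVE2 was at 17.1, 21.7 and 11.3 CPM in the mutant and at 21.4, 21.9 and 31.4 CPM in Col-0, overlapping ranges (-0.58 ± 0.20, adjusted p = 0.0648). It passed without replicate 2 of the mutant (adjusted p = 0.0127). For RVE1, RVE4, RVE6, LNK1 and LNK2 the log2 fold changes lay between -0.21 and 0.51, and none passed.

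Replicate 3 of the mutant at 24 h was the highest of its group for 9 of the 10 genes, and the lowest for RVE2. It was the highest for 35.9% of all tested genes. Its CPM over the mean of replicates 1 and 2 was 4.13 for CCA1, 4.66 for PRR9, 2.05 for LHY, 1.96 for RVE8 and 0.58 for RVE2. Over all tested genes this ratio had a median of 0.972 and lay between 0.551 and 1.87 from the 5th to the 95th percentile. Of all tested genes 0.794% reached the ratio of CCA1 and 0.619% that of PRR9. Of the 6 relatives of these genes, 3 were above that range, RVE3 (near 1 CPM) at 3.12, LNK3 at 2.48 and LNK4 at 2.25, and 3 were within it, RVE5 at 1.09, RVE7 at 1.40 and its near copy AT3G10113 at 1.32. The 13 core clock genes of the day and evening lay between 0.610 (PRR3) and 1.31 (PRR5), with TOC1 at 0.718; these names were chosen after their values were seen. The labels used here give no separate sampling time for this library.

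**Figure D3:**
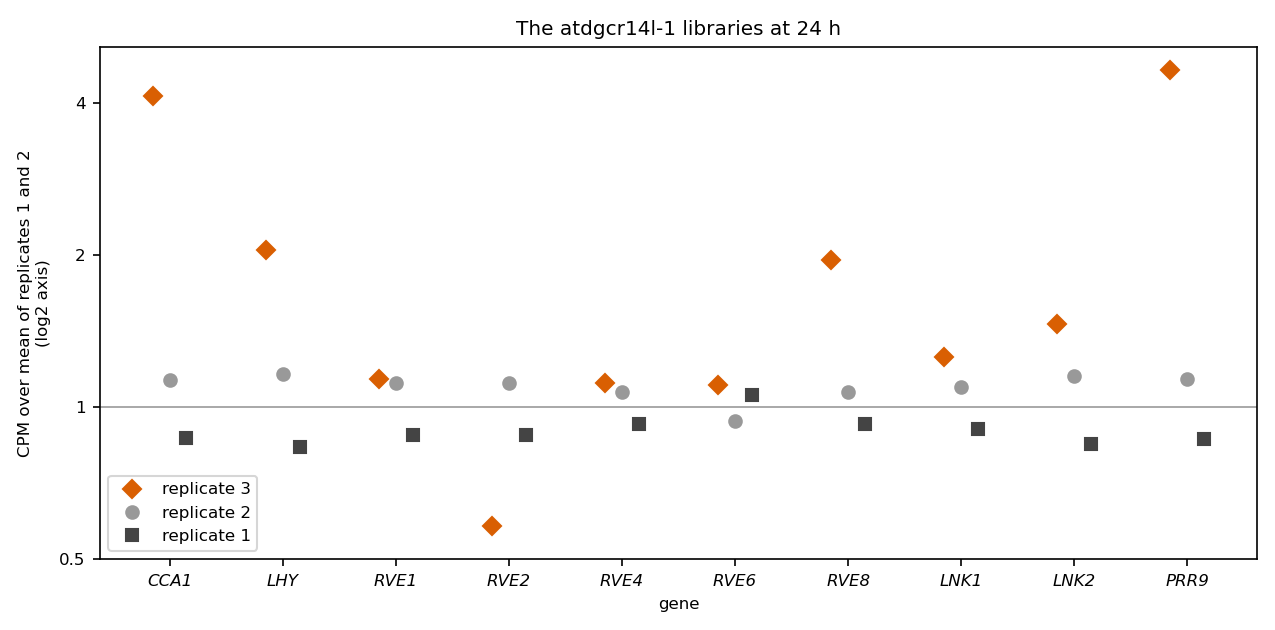
CPM of each of the 10 genes (horizontal axis) in the 3 atdgcr14l-1 libraries at 24 h, over the mean of replicates 1 and 2 (vertical axis, log2 scale). Replicate 3 (diamonds) lies at 4.13 for CCA1 and 4.66 for PRR9 and below 1 for RVE2 alone.

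In OE-6 at 24 h, LHY and RVE8 fell relative to the mutant and RVE2 rose, the same 3 genes as at 0 h. Over all tested genes 5.17% rose and 6.79% fell in this comparison, and the median log2 fold change of the 10 was -0.17 against -0.02 over all genes. RVE8 was at 2.07, 1.22 and 1.93 CPM in OE-6, below every mutant library (-1.95 ± 0.31, adjusted p = 0.00209). LHY was at 1.15, 0.963 and 0.932 CPM in OE-6, also below every mutant library (-1.12 ± 0.32, adjusted p = 0.0349). RVE2 was at 25.7, 31.1 and 34.8 CPM in OE-6, above every mutant library (0.87 ± 0.20, adjusted p = 0.0124). When only the 2 groups compared were fitted, none of the 3 passed (adjusted p = 0.168 for RVE8, 0.293 for LHY and 0.232 for RVE2). The LHY call was also lost without replicate 3 of the mutant (-0.69 ± 0.29, adjusted p = 0.182) or without replicate 2 or 3 of OE-6 (adjusted p = 0.0869 and 0.082). Without replicate 3 of the mutant, CCA1 was 0.14 ± 0.18 and PRR9 0.39 ± 0.23, against -0.89 ± 0.41 and -0.76 ± 0.46 with it, and neither was called in either fit. CCA1 passed without replicate 1 of the mutant (adjusted p = 0.0449).

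OE-6 and Col-0 were not told apart in any of the 10 genes at either time by edgeR's test. Of all tested genes 0.0141% were called in either direction at 0 h and 0.0047% at 24 h. At an unadjusted p under 0.05, 0 of the 10 passed at 0 h and 1 at 24 h, RVE4 (0.20 ± 0.09). DESeq2 also called 0 of the 10 at each time. For RVE8 the log2 fold change was -0.05 ± 0.37 at 0 h and 0.07 ± 0.31 at 24 h. For LHY it was -0.38 ± 0.38 and 0.45 ± 0.32 at these times, and for CCA1 -0.11 ± 0.48 and 0.22 ± 0.41. RVE2 was at 46.0 to 48.1 CPM in OE-6 at 0 h, above both Col-0 libraries (0.42 ± 0.22, adjusted p = 1). The share of all tested genes whose OE-6 and Col-0 libraries lay apart is not given here.

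Between 24 h of salt and 0 h, RVE6 rose in all 3 lines, and the other calls differed in which lines passed. No unsalted 24 h libraries were analysed here, so the salt and the 24 h passed cannot be told apart. In OE-6 4 of the 10 genes rose and 1 fell, against 29.5% and 25.7% of all tested genes. In atdgcr14l-1 1 rose and 3 fell, against 31.3% and 26.7%. In Col-0 1 rose and 1 fell, against 25.4% and 21.4%. The median log2 fold change of the 10 was 0.41 in OE-6, -0.12 in the mutant and 0.31 in Col-0, against 0.03 over all tested genes in each. A call in 1 line and not in another does not show that the lines differ.

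RVE6, a relative of RVE8 that also activates evening genes, was the member with the most regular change. It was at 12.4, 18.4 and 15.2 CPM at 24 h in OE-6 against 10.6, 9.86 and 10 CPM at 0 h (0.60 ± 0.12, adjusted p = 0.000766). In the mutant it was at 14.2, 12.6 and 14.8 CPM at 24 h against 10.02, 10.4 and 9.85 CPM at 0 h (0.46 ± 0.12, adjusted p = 0.00453), and in Col-0 at 15.4, 16.6 and 16.2 CPM against 10.9 and 9.12 CPM (0.68 ± 0.14, adjusted p = 0.000987). No 24 h library overlapped with a 0 h library of its line, and the 3 calls held with each library left out in turn. RVE2 fell in OE-6 (-0.62 ± 0.19, adjusted p = 0.014, lost without OE-6 24 h replicate 1 at 0.0574) and in the mutant (-0.67 ± 0.20, adjusted p = 0.00902). In Col-0 it was at 21.4, 21.9 and 31.4 CPM at 24 h against 36.5 and 33.7 CPM at 0 h (-0.50 ± 0.21, adjusted p = 0.072). LNK2, the coactivator, fell in the mutant (-0.50 ± 0.15, adjusted p = 0.0113). It fell also in Col-0 (-0.67 ± 0.17, adjusted p = 0.00475), where it was at 33.1, 35.7 and 32.3 CPM at 24 h against 55.5 and 51.4 CPM at 0 h. In OE-6 LNK2 was at 38.9, 45.9 and 38.5 CPM at 24 h against 44.8, 55.96 and 43.1 CPM at 0 h, ranges that overlap (-0.22 ± 0.15, adjusted p = 0.232). LNK1, the related coactivator, lay between -0.06 and 0.22 on the log2 scale in the 3 lines and passed in none.

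CCA1, LHY and RVE8 passed the test for salt in OE-6 and not in the other lines, while the difference between lines, tested on its own, did not pass for any of them. LHY rose in OE-6 to 1.15, 0.963 and 0.932 CPM at 24 h, against 0.436, 0.425 and 0.276 CPM at 0 h (1.41 ± 0.34, adjusted p = 0.00257). CCA1 rose there to 3.4, 4.46 and 3.29 CPM, against 1.67, 1.70 and 1.5 CPM at 0 h (1.19 ± 0.43, adjusted p = 0.0273), and the call was lost without any 1 OE-6 library at 0 h or without OE-6 24 h replicate 2 (adjusted p = 0.0598 to 0.0843). RVE8 rose there as well (0.89 ± 0.32, adjusted p = 0.029), lost without OE-6 0 h replicate 3 (0.123), without OE-6 24 h replicate 1 (0.0922) or 3 (0.0746), and with only the 2 groups fitted (0.0906). Without OE-6 0 h replicate 3 the count of members called in OE-6 was 3. PRR9 (1.11 ± 0.47, adjusted p = 0.0581) passed in OE-6 without OE-6 24 h replicate 1 (0.049) or without replicate 1, 2 or 3 of the mutant at 24 h (0.0234, 0.0402 and 0.000517). In Col-0 every 24 h library lay above both 0 h libraries for CCA1 (0.87 ± 0.48, adjusted p = 0.155), LHY (0.59 ± 0.38, adjusted p = 0.221), RVE8 (0.77 ± 0.37, adjusted p = 0.0987) and PRR9 (0.64 ± 0.53, adjusted p = 0.344). With all libraries none of these was called in Col-0, where 25.4% of all tested genes were called higher. The share of all tested genes whose libraries lay apart in this way is not given here. Without atdgcr14l-1 24 h replicate 3, 5 members were called for salt in Col-0, CCA1 (adjusted p = 0.00199), PRR9 (0.0399) and RVE2 (0.0196) being added, and without Col-0 24 h replicate 3 there were 4. RVE2 also passed there without mutant 24 h replicate 2 (0.038), and RVE1 (-0.61 ± 0.26, adjusted p = 0.0622) without Col-0 24 h replicate 3 (0.0462) or OE-6 24 h replicate 2 (0.0355) or 3 (0.0476).

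In the mutant the salt values of CCA1 and PRR9 again depended on replicate 3 at 24 h. CCA1 was at 2.93, 3.81 and 13.9 CPM at 24 h against 4.999, 4.95 and 4.15 CPM at 0 h, so that 2 libraries lay below and 1 above the whole 0 h range. Its log2 fold change was 0.55 ± 0.41 with all libraries (adjusted p = 0.264), -0.48 ± 0.19 without replicate 3 (adjusted p = 0.0432) and 0.92 ± 0.35 without replicate 1 (adjusted p = 0.0424). PRR9 was 1.03 ± 0.46 with all libraries (adjusted p = 0.067) and -0.12 ± 0.23 without replicate 3 (adjusted p = 0.707), and it passed without replicate 1 (0.00895) or 2 (0.0212). LHY was 0.64 ± 0.31 (adjusted p = 0.0924) and passed without replicate 1 (0.0251). RVE8 was at 4.75, 5.49 and 10.03 CPM at 24 h against 8.01, 7.05 and 7.80 CPM at 0 h, overlapping ranges (-0.17 ± 0.30, adjusted p = 0.641). RVE4 fell slightly (-0.21 ± 0.09, adjusted p = 0.0473), a call lost in 9 of the 17 fits that left out a library (adjusted p up to 0.21).

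**Figure D4:**
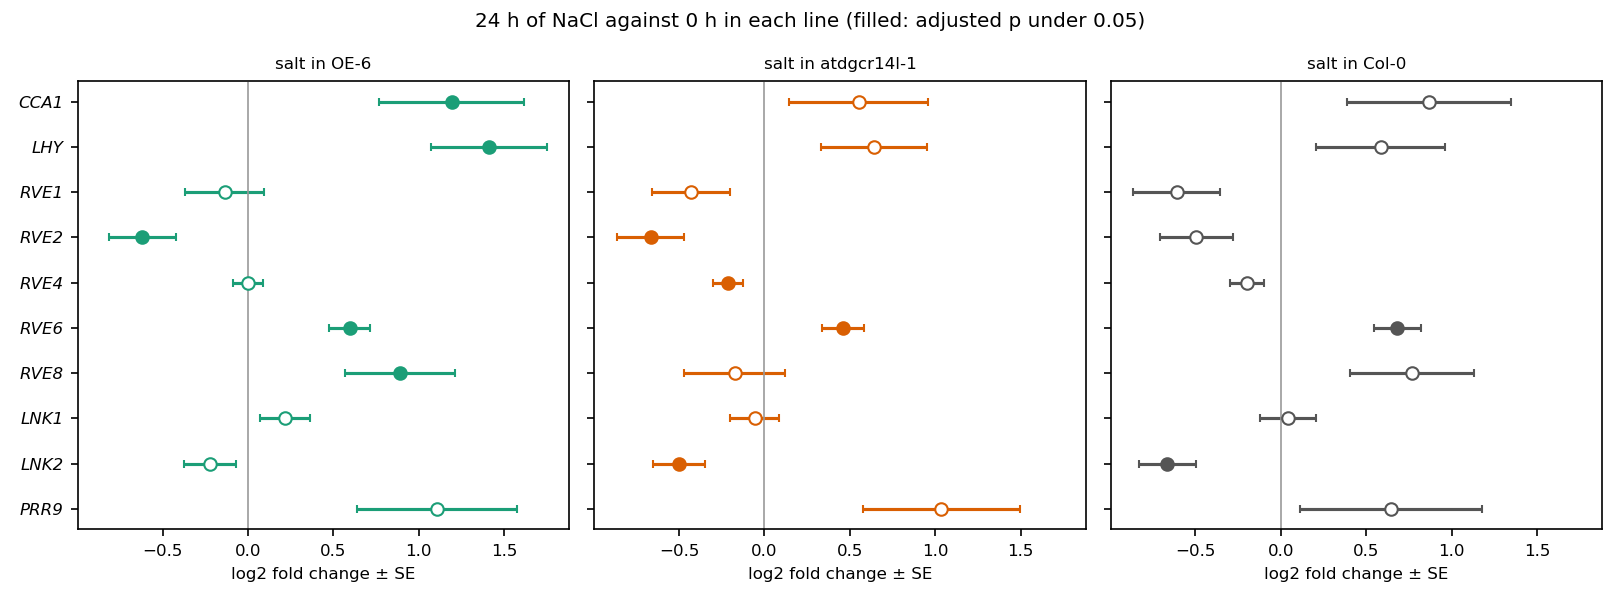
Log2 fold change ± SE (horizontal axis) of 24 h of salt against 0 h for each of the 10 genes (vertical axis) in OE-6, atdgcr14l-1 and Col-0; filled points have an adjusted p under 0.05. RVE6 is filled in every line at 0.46 to 0.68, and RVE8 lies at 0.89 in OE-6, -0.17 in atdgcr14l-1 and 0.77 in Col-0.

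Whether the response over 24 h differed between lines was tested directly. None of the 10 genes was called for OE-6 against the mutant (0.0094% of all tested genes were), for the mutant against Col-0 (0.0047%) or for OE-6 against Col-0 (0%). At an unadjusted p under 0.05 there was 1 member for OE-6 against the mutant and 0 in the others, and DESeq2 called 0 in each. That member was RVE8, whose response differed by 1.06 ± 0.44 (adjusted p = 0.458). The response of RVE8 in the mutant minus that in Col-0 was -0.94 ± 0.47 (adjusted p = 0.575). Without replicate 3 of the mutant at 24 h, CCA1 was called for OE-6 against the mutant (1.67 ± 0.25, adjusted p = 0.038).

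TOC1, the evening gene that CCA1 and LHY repress, was set over CCA1 and over RVE8 within each library, which needs no scaling between libraries. At 0 h TOC1 had 107, 124 and 125 times the CPM of CCA1 in the OE-6 libraries, 25.2, 28.6 and 31.9 times in the mutant and 125 and 92.8 times in Col-0. Over RVE8 it had 154, 193 and 327 times the CPM in OE-6, 15.8, 20.1 and 16.98 times in the mutant and 177 and 217 times in Col-0. These ratios are not corrected for length and serve only to compare libraries, and in both the mutant lay below all libraries of the other lines. They are built on the CCA1 and RVE8 values given above, so low ratios in the mutant restate those levels and are no separate support. At 24 h the ratio to CCA1 was 44.7, 43.8 and 55.99 in OE-6, 40.9, 39.0 and 6.92 in the mutant and 52.6, 55.8 and 46.3 in Col-0. The ratio to RVE8 at 24 h was 73.4, 160 and 95.2 in OE-6, 25.2, 27.1 and 9.61 in the mutant and 100, 83.2 and 119 in Col-0, and the mutant was again below the others in each. TOC1 itself averaged 133 ± 7.69 CPM in the mutant at 0 h and 188 ± 21.2 CPM in Col-0 (SD, n = 3 and 2), a difference that did not pass (-0.49 ± 0.15, adjusted p = 0.139), nor did that at 24 h (-0.42 ± 0.14, adjusted p = 0.0577).

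Of 13 core clock genes of the day and evening, the mutant had 3 lower than Col-0 at 0 h and 2 at 24 h, and none higher, where 0.573% and 4.67% of all tested genes were lower. ELF4, of the evening complex, averaged 57.4 ± 6.51 CPM in the mutant against 119 ± 12.8 CPM in Col-0 at 0 h (-1.05 ± 0.19, adjusted p = 0.01) and 109 ± 13.8 against 208 ± 10.5 CPM at 24 h (-0.93 ± 0.18, adjusted p = 0.00477). FKF1, a blue-light receptor that acts in flowering time, changed by -0.53 ± 0.11 at 0 h and by -0.53 ± 0.10 at 24 h on the log2 scale (adjusted p = 0.0233 and 0.00518). PRR5 fell at 0 h (-0.57 ± 0.13, adjusted p = 0.0363). Their median log2 fold change was -0.26 at 0 h and -0.24 at 24 h, against -0.006 and -0.008 over all tested genes. The 24 h calls held with each library left out, though the count there was above 2 and up to 6 in fits without OE-6 0 h replicate 1, mutant 24 h replicate 2, or OE-6 24 h replicate 1 or 2, but at 0 h ELF4 was lost without any 1 of 3 libraries, FKF1 without any 1 of 4 and PRR5 without any 1 of 8, either Col-0 library among them for each (adjusted p up to 0.15, 0.248 and 0.285). In OE-6 against the mutant 5 of the 13 rose at each time and none fell, where 1.48% of all tested genes rose at 0 h and 5.17% at 24 h, with medians of 0.22 at 0 h and 0.35 at 24 h (0.013 and -0.016 over all tested genes). ELF4 (1.14 ± 0.18 and 1.11 ± 0.18 on the log2 scale at 0 h and 24 h) and FKF1 (0.56 ± 0.10 and 0.66 ± 0.10) were called at both times in every fit that left out 1 library. The count was 3 at 0 h without any 1 of the 6 libraries compared, and 2 at 24 h without mutant replicate 1 or OE-6 replicate 2. Over 24 h of salt 2 of the 13 rose in each line, ELF4 and BOA, while 5 fell in OE-6 (3 without OE-6 0 h replicate 2 or 24 h replicate 1), 6 in the mutant and 5 in Col-0. Over all tested genes 29.5% rose and 25.7% fell in OE-6, 31.3% and 26.7% in the mutant and 25.4% and 21.4% in Col-0. The rises in the list were fewer than these shares of 13 genes give and the falls more, each by a few genes only, so the counts stay close to the shares. Without Col-0 0 h replicate 1 the falls in Col-0 were 4. Without mutant 24 h replicate 3 those in the mutant were 5. In OE-6 the falls were not more in the fits that gave 3. Without Col-0 0 h replicate 2 the rises in Col-0 were 1, ELF4 being lost (adjusted p = 0.0593). CHE, a repressor of CCA1, changed most, by -1.54 ± 0.11 in OE-6, -1.71 ± 0.11 in the mutant and -1.64 ± 0.11 in Col-0.

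Of the 6 relatives of the members, LNK3 and LNK4, the smaller LNK proteins, followed the direction of RVE8. LNK4 averaged 17.6 ± 1.36 CPM in the mutant at 0 h against 8.89 ± 1.73 CPM in Col-0 (0.98 ± 0.28), and 19.0 ± 9.68 against 8.90 ± 1.04 CPM at 24 h (1.09 ± 0.25, adjusted p = 0.0134). LNK3 averaged 9.86 ± 0.30 CPM in the mutant at 0 h against 4.02 ± 0.55 CPM in Col-0, and 11.9 ± 6.77 against 5.51 ± 1.22 CPM at 24 h (1.104 ± 0.31, adjusted p = 0.0317). Of the 6, these were the genes called against Col-0 at 24 h, where 7.71% of all tested genes rose. None was called at 0 h, where 1.45% of all tested genes rose and 2 of the 6 passed without mutant 24 h replicate 3. The 24 h calls were lost without Col-0 24 h replicate 1 or 2, LNK3 also without Col-0 replicate 3 or mutant replicate 3 (adjusted p up to 0.164 for LNK3 and 0.0638 for LNK4). In OE-6 against the mutant LNK4 fell at both times, with log2 fold changes of -1.40 ± 0.25 at 0 h and -1.12 ± 0.25 at 24 h (adjusted p = 0.00502 and 0.012), calls that held with each library left out. LNK3 fell too (-1.33 ± 0.31, adjusted p = 0.0233, and -0.99 ± 0.30, adjusted p = 0.0487), with the call lost in 5 and 15 of the 17 such fits. In this comparison 3.09% of all tested genes fell at 0 h and 6.79% at 24 h. RVE3 and RVE5 rose over 24 h of salt in all 3 lines, RVE5 by 0.78 ± 0.10 in OE-6, 0.60 ± 0.10 in the mutant and 0.65 ± 0.11 in Col-0. RVE3 stayed near 1 CPM or below in most libraries, and its rise was 1.75 ± 0.51 in OE-6, 1.74 ± 0.49 in the mutant (lost without mutant 24 h replicate 3, adjusted p = 0.077) and 1.53 ± 0.60 in Col-0 (lost in 9 of 17 fits). RVE7 fell over salt in every line, at -2.21 ± 0.16 in OE-6, -2.15 ± 0.15 in the mutant and -2.36 ± 0.17 in Col-0, as did its near copy AT3G10113, and reads of these near copies may be split between them. In each line 2 of the 6 thus rose over salt and 2 fell. Over the 3 lines 25.4% to 31.3% of all tested genes rose and 21.4% to 26.7% fell, so for 6 genes these counts are near the shares.

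**Figure D5:**
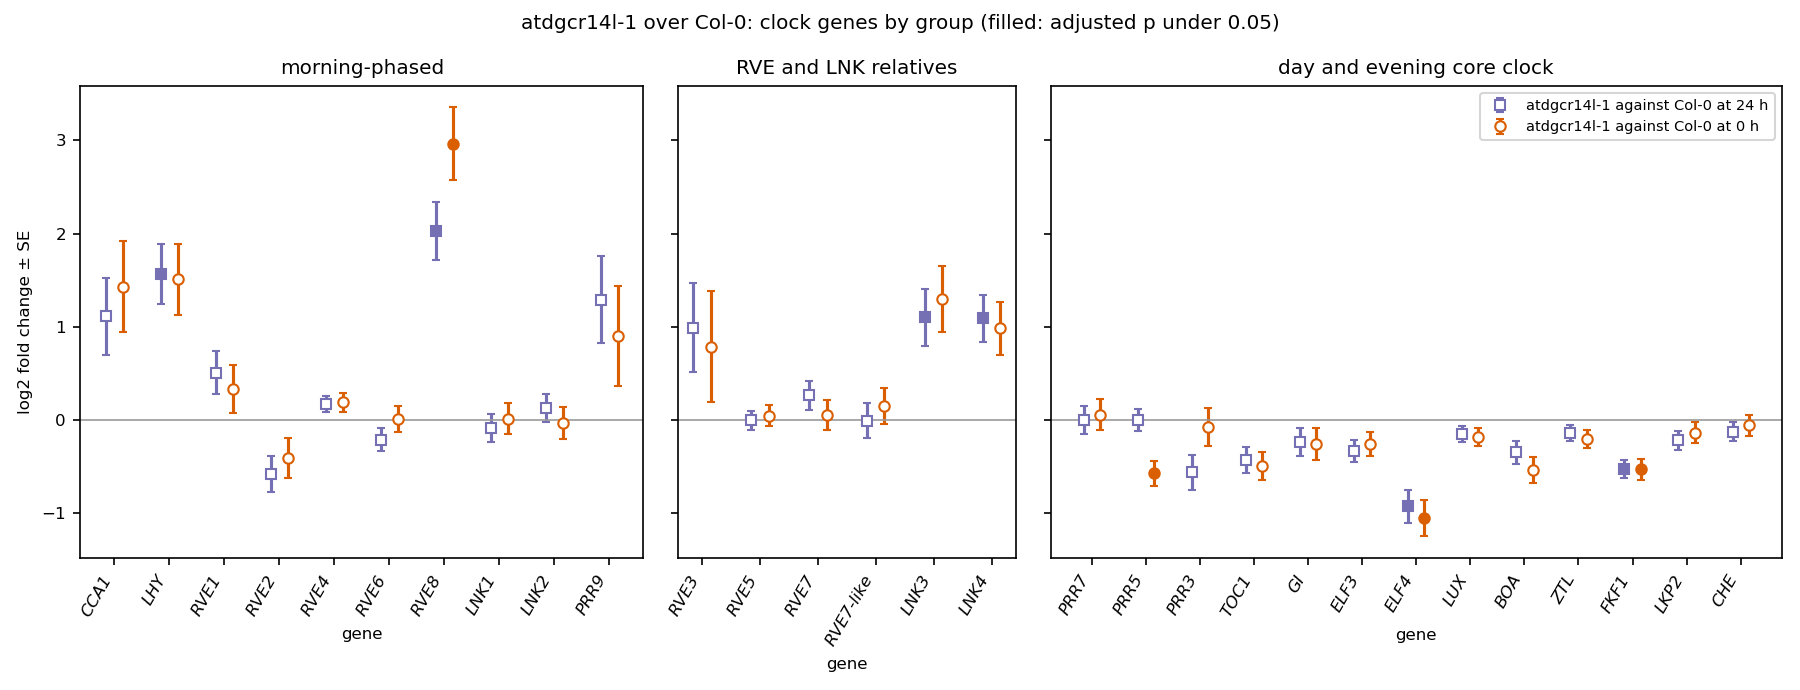
Log2 fold change ± SE (vertical axis) of atdgcr14l-1 over Col-0 at 24 h (squares) and 0 h (circles) for the 10 morning-phased genes, 6 relatives and 13 core clock genes of day and evening (horizontal axis); filled symbols have an adjusted p under 0.05. RVE8 (2.03 and 2.97) and LHY lie highest, while ELF4 (-0.93 and -1.05) lies lowest.

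Of 17 clock outputs and modulators, 2 rose and 4 fell in the mutant against Col-0 at 24 h, where 7.71% of all tested genes rose and 4.67% fell, with a median log2 fold change of -0.25. Without Col-0 24 h replicate 2 or mutant 24 h replicate 3, 0 rose and 1 fell. CO, the activator of flowering, fell the most, to 1.44 ± 0.36 CPM in the mutant against 3.26 ± 0.37 CPM in Col-0 (-1.17 ± 0.18, adjusted p = 0.00137), a call that held with each library left out. CAT2, a catalase gene with a morning peak, rose (0.92 ± 0.24, adjusted p = 0.0248, lost when mutant replicate 3 or Col-0 replicate 1 or 2 of that time was left out, adjusted p up to 0.117). At 0 h 1 of the 17 fell, where 0.573% of all tested genes fell. It was COR27 (-0.74 ± 0.17, adjusted p = 0.0391, lost in 9 of 17 fits). In OE-6 against the mutant 2 rose and 2 fell at 0 h (1 and 0 without mutant replicate 1), and 8 rose and none fell at 24 h (4 rose without mutant replicate 1 or OE-6 replicate 2), CO by 1.25 ± 0.18 (adjusted p = 0.00109) and CDF3 by 0.75 ± 0.13 (adjusted p = 0.00311). Over all tested genes 1.48% rose and 3.09% fell at 0 h, and 5.17% rose and 6.79% fell at 24 h. Over 24 h of salt 4 rose and 2 fell in OE-6, 3 rose and 6 fell in the mutant, and 2 rose and 4 fell in Col-0 (1 and 2 without Col-0 0 h replicate 2). These counts were near or below the shares of all tested genes given above. The falls in the mutant were above the 26.7% there by a small margin. They were 5 without mutant 0 h replicate 1 or 2 or mutant 24 h replicate 1. CDF2 rose and GRP8 fell in each line, with CDF2 at 1.70 ± 0.16 in OE-6, 1.64 ± 0.16 in the mutant and 1.41 ± 0.19 in Col-0. Of 8 splicing and RNA methylation factors that are known to alter clock transcripts (SKIP, PRMT5, STIPL1, GEMIN2, SIC, LSM4, LSM5 and FIO1), none was called between lines at either time. At most 7.71% of all tested genes were called in 1 direction there, so none of 8 is near what such shares give. Of these 8, 1 rose and 2 fell over salt in OE-6, 1 and 3 in the mutant, and 1 and 1 in Col-0. By comparison 29.5% of all tested genes rose and 25.7% fell in OE-6. These shares were 31.3% and 26.7% in the mutant and 25.4% and 21.4% in Col-0, so for 8 genes the counts were near or below them. With 1 library left out the rises ranged from 0 to 3 in OE-6 and from 0 to 1 in Col-0. GEMIN2 fell over salt in all 3 lines (-0.61 ± 0.08 in OE-6, -0.53 ± 0.08 in the mutant and -0.34 ± 0.09 in Col-0), in Col-0 not without Col-0 0 h replicate 1 (adjusted p = 0.0585).

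Across the 17 libraries, likeness of pattern was measured as the root mean square difference of log2(CPM + 1) profiles, each centred on its own mean; the added 1 damps the profiles of genes at low CPM. Among the 10 genes RVE1 and RVE4 were the closest pair at 0.167, and CCA1 and PRR9 followed at 0.212, level with RVE4 and LNK1. Profiles that vary little also lie close by this measure, whether or not they vary together. The root mean square of the profile itself was 0.61 for CCA1 and 0.558 for PRR9. It is not given for RVE1, RVE4 or LNK1, so the rank of their pairs does not show a shared pattern. RVE2 and RVE8 were the farthest apart at 1.317. Outside the 10, among genes of at least 5 CPM on average, those nearest to CCA1 were LNK3 (0.254), TGA1 (0.295) and CAT2 (0.315), set against a root mean square of 0.61 for the CCA1 profile itself. Nearest to PRR9 were AT5G41800 (0.289), TGA1 (0.301) and MSL5 (0.303), with 0.558 for PRR9 itself. LHY was nearest to AT1G73430 (0.171), AT3G61420 and DWA3 (0.181 each), with 0.44 for LHY itself. LNK2 was nearest to AT5G47540 (0.128), CPK23 (0.13) and AT3G23900 (0.133), with 0.293 for LNK2 itself.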

How the data were processed

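RNA was poly(A)-selected and made into strand-specific libraries by the dUTP method, per the labels' protocols, and 17 libraries in 6 groups were used. The deposited values are estimated counts per gene, 1 library a file, whole numbers for 27655 genes; the value 2 occurred 8767 times, against 2703 times for 1. Gene IDs carry the annotation name Araport11.447, per the file headers and IDs. The tools, per the submitters' processing notes, included StringTie 2.1.7, Bowtie2 2.4.5 and DESeq2 2.11.40.7. Their order and settings, strand among them, and the build were not given in the sources used here.

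Groups came from the labels' titles. Genes with low counts were left out by edgeR's filterByExpr, leaving 21282, and 2772 genes were at 0 in every library. Libraries were scaled by TMM (factors 0.9326 to 1.1061) and all 6 groups were fitted together with edgeR 4.0.16 (robust quasi-likelihood test, R 4.3.3), giving 12 comparisons, each adjusted by Benjamini-Hochberg over all tested genes with a threshold of 0.05. A count is a sample of molecules read after PCR, so the depth bounds counting error only. The fit was tested on simulated counts for 3 of the comparisons. The 10 genes, the other clock lists and the tests were chosen with earlier results of these data known. All 10 are named in every library; from each other list up to 4 genes a comparison with the smallest p were to be named, others being named after their values were seen. Alternatives were RLE scaling, no filter, a mean of at least 5 CPM, organelle genes left out, only the groups compared, a replicate block, DESeq2 1.42.0 and leaving out each library, and, added after seeing the data, 2 libraries left out together. CPM per kb used the union of exons in TAIR10.1, whose RefSeq annotation matched 27445 genes by locus. Plots were drawn with matplotlib 3.10.9 under Python 3.11.15.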

Additional observations from a re-analysis of the deposited data

How the results depend on the processing

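RLE scaling and no filter on low counts moved none of the 120 member results (10 genes in 12 comparisons) across the threshold. Leaving out organelle genes moved 1, RVE2 in the mutant against Col-0 at 24 h (-0.62, adjusted p = 0.0495). The count of members called for salt in Col-0, 2 with all groups in 1 fit, was 6 with only the groups compared, 4 with DESeq2 and 7 with both OE-6 24 h replicate 2 and atdgcr14l-1 24 h replicate 3 left out. A mean of at least 5 CPM kept 5 members, and the count was then 2 against 5 for salt in OE-6, 0 against 1 and 1 against 2 for atdgcr14l-1 over Col-0 at 0 h and 24 h, and 1 against 3 for OE-6 against the mutant at each time. For atdgcr14l-1 over Col-0 the count of 1 at 0 h was 5 with only the groups compared, 2 with DESeq2 and 4 with both libraries left out, and the count of 2 at 24 h was 5 with DESeq2. For OE-6 against the mutant the count of 3 at 0 h was 6 with only the groups compared and 5 with both left out, and the count of 3 at 24 h was 0 and 1 under these. For the difference of the salt responses of OE-6 and the mutant it was 1 with both left out (CCA1, 1.52, adjusted p = 0.0324) against 0. With 1 library left out in turn, the counts ranged from 2 to 5 for salt in Col-0, 3 to 6 in the mutant and 3 to 6 in OE-6, 1 to 3 (0 h) and 2 to 5 (24 h) for atdgcr14l-1 over Col-0, 2 to 5 and 2 to 4 for OE-6 against the mutant, 0 to 0 for OE-6 against Col-0 at both times, and 0 to 1 for the difference of responses of OE-6 and the mutant and 0 to 0 for the other 2. The sign of CCA1 for salt in the mutant turned to -0.48 without atdgcr14l-1 24 h replicate 3 (adjusted p = 0.0432) and with both libraries left out (adjusted p = 0.0234), against 0.55 with all libraries and 0.92 without replicate 1. The shares of all tested genes called under these other settings are not given here, so these counts cannot be set against them. The cause of these changes was not tested.

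The labels give the groups the same replicate numbers, but no comparison had all correlations of same-numbered deviations over 0.1 (range -0.276 to 0.217), so the numbers were not taken as pairing. For Col-0 at 0 h the numbers of the titles differ from those of the deposited files for replicate 2, so the check and the block may match it wrongly. With a replicate block the count was 3 against 4 for salt in the mutant, 6 against 5 for salt in OE-6 and 2 against 3 for OE-6 against the mutant at 24 h, and it was as without the block in the other comparisons. Depth limits LHY, with 14 to 186 counts a library; PRR9 had the highest spread between libraries after counting error of the 10 (39.2%).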
